A study of Danio rerio with 6 samples.

Results

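The genes smyd1b, desma, hspb7, mb, fbxl22 and apobec2b, which keep heart muscle in working order, were followed in chromatin immunoprecipitation sequencing (ChIP-seq) of zebrafish heart tissue. They were picked by symbol as muscle maintenance genes, with earlier results of these data known, and are 6 of the 10067 genes that at least 1 deposited peak list annotates, to which shares of genes with a peak refer below. Each of the 6 symbols matched 1 RefSeq transcript. Fish were 1 to 1.5 years old, and their hearts were uncut, or had the ventricle tip cut off and were taken 6 or 9 days after that amputation (6 dpa and 9 dpa). Acetylation of lysine 9 of histone H3 (H3K9ac), a mark of active promoters, and its trimethylation (H3K9me3), a mark of silent chromatin, were each mapped in 1 library per time, 6 libraries in all. The labels name neither a genotype nor a sham-operated control, and the number of hearts pooled is not given in the sources used here. The comparisons ask where both marks lie before and during regrowth of the ventricle, and with 1 library per mark and time none of them has a replicate check or a p. All intervals below are 95% intervals and cover counting error only.

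The products of these genes assemble, brace, supply and turn over the contractile apparatus. Smyd1b is a lysine methyltransferase and a partner of myosin chaperones that zebrafish muscle needs to build its thick filaments. Desmin, from desma, forms the intermediate filaments that tie neighbouring Z-discs together, and Hspb7 is a small heat shock protein of heart muscle. Myoglobin, from mb, stores oxygen in the muscle cell. Fbxl22 is an F-box protein found at the Z-disc, where such proteins mark others for degradation, and Apobec2b belongs to a family of deaminases whose Apobec2 branch is found in muscle.

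A deposited peak list gives each peak a number of tags (reads inside it), a width and a score of 10 times the negative log10 of its p, never below 50. A gene was counted as carrying a mark when a peak overlapped the 2 kb on either side of its transcription start site (TSS). The score and the tags together return the read density that the peak was scored against, here called the local density. Whether it counts the peak's own reads is not given in the sources used here. If it does, a large peak raises its own expected tags and any limit for listing derived from them. The most frequent local density, the background of a library, was 14.63 reads per kb in the uncut H3K9ac library, 11.25 at 6 dpa and 15.01 at 9 dpa. For H3K9me3 it was 4.10, 10.83 and 9.24 in the same order. The H3K9ac lists held 16264, 17525 and 17223 peaks and the H3K9me3 lists 4488, 6216 and 4771. A change in tags is given on the log2 scale relative to the median change among the 8009 genes whose promoter carried H3K9ac in all 3 lists. That median itself rose by 0.11 at 6 dpa and by 0.22 at 9 dpa against uncut, while the background changed by -0.38 and 0.037. The choice of scale matters: with tags scaled to the background, 38.4% of genes compared were past 1.5-fold higher and 1.08% lower at 6 dpa, where relative to the median 3.42% and 7.33% were. At 9 dpa 7.37% were then higher and 1.09% lower against uncut, and 1.65% higher and 14.8% lower against 6 dpa.

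Promoter H3K9ac was found at 5 of the 6 genes before amputation, 4 at 6 dpa and 3 at 9 dpa, and promoter H3K9me3 at none of them in any list. Over all genes the shares with a promoter H3K9ac peak were 82.8%, 86.9% and 85.4%, and with a promoter H3K9me3 peak 1.97%, 4.6% and 1.83%. Only desma and hspb7 kept the promoter peak in all 3 lists, as 79.6% of all genes did. A peak in the uncut list alone stood at fbxl22 and apobec2b, a pattern of 0.656% of all genes. The mb peak was in the uncut and 6 dpa lists, a pattern of 1.4%, and that of smyd1b in the 6 and 9 dpa lists, a pattern of 3.17%. At 6 dpa the mb peak lay inside the gene and reached into the 2 kb window by only 55 bp. The other patterns, with none of the 6 genes, were no promoter peak at all (9.74% of genes), 6 dpa alone (2.78%), 9 dpa alone (1.47%) and uncut with 9 dpa (1.22%). From 6 to 9 dpa mb alone of the 6 lost its peak, as 4.18% of genes did, and none gained a peak, as 2.69% did. Because the genes were chosen with such patterns in view, these counts describe them and no test was made. No other annotated gene has a TSS within 2 kb of these promoter peaks.

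**Figure D1:**
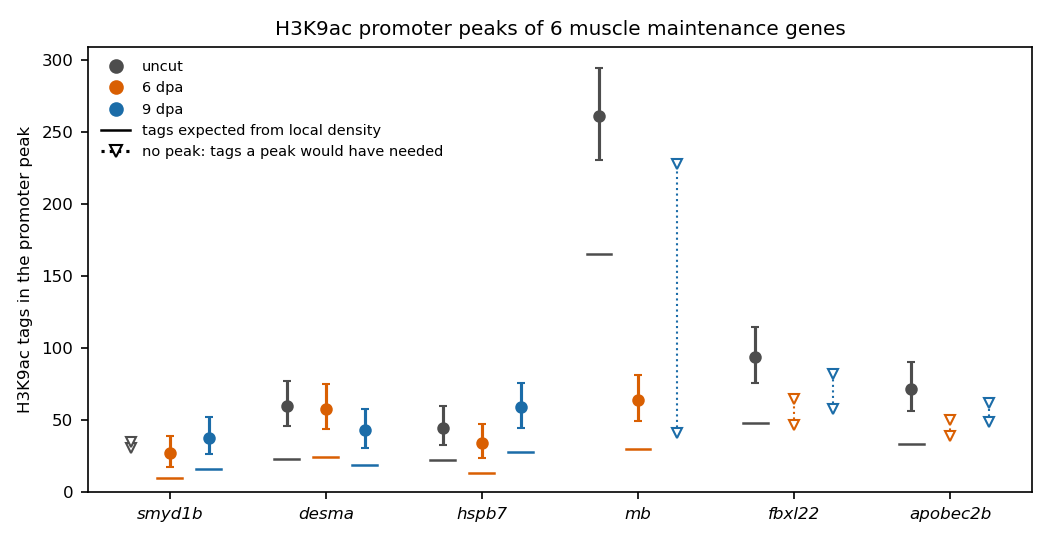
H3K9ac tags in the promoter peak of each gene (vertical axis, tags) in the uncut, 6 dpa and 9 dpa libraries. Points are tags with 95% Poisson intervals, short lines are the tags expected from the local density, and open triangles joined by a dotted line span the tags that an absent peak would have needed. The mb point falls from 261 to 64 tags, while the other points lie between 27 and 94. The 64 tags belong to a narrower peak inside the mb gene that does not cover the TSS.

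Heart tissue holds several cell types, and in such bulk samples fewer cells of a type and less mark per cell cannot be told apart. Throughout, an annotated gene is one that at least 1 peak list names. Genes to which no list assigns a peak are thus left out of counts of annotated genes with a peak. Of 17 cardiomyocyte markers 8 were annotated. Of these, 8 had a promoter H3K9ac peak in uncut hearts, 6 at 6 dpa, with tnnt2a and tnnc1a lacking it, and 8 at 9 dpa. The shares of all genes with one, for this marker list and those below, were 82.8%, 86.9% and 85.4%. Summed over the 8, 6 and 8 markers with a peak, promoter tags were 977, 461 and 877. These sums are 7.75, 3.41 and 5.97 times the tags of 1 median gene, which is not a fold per marker. They cover unlike sets, as tnnt2a (67 tags before) and tnnc1a (60) are not in the 6 dpa sum. All 6 compared at 6 dpa were past 1.5-fold lower, as 7.33% of the 8150 genes with a promoter peak in both lists were. At 9 dpa 3 of 8 were past 1.5-fold lower, as 2.8% of 8132 genes were. Scaled to the background, 2 of the 6 were past 1.5-fold lower at 6 dpa, with a median of -0.44. At 9 dpa 1 of the 8 was then lower and 2 were higher. Of all genes 1.08% were lower at 6 dpa on that scale, and 1.09% lower and 7.37% higher at 9 dpa. The 11 annotated of 12 erythrocyte and thrombocyte markers had summed tags of 1620, 2308 and 2855, counting for each the peak that hbaa1 and ba1l share. The sums cover unlike sets, with gata1a and gfi1b lacking a peak before, gata1a at 6 dpa and ba1 at 9 dpa. Promoter H3K9me3 peaks stood at 2, 2 and 0 of these 11 genes, where 1.97%, 4.6% and 1.83% of all genes had one. The other marker lists had none. At 6 dpa 1 of 9 compared was past 1.5-fold higher (median 0.33) and at 9 dpa 2 of 8 (0.31). Of all genes 3.42% and 3.14% were. Scaled to the background 7 of the 9 and 3 of the 8 were, as 38.4% and 7.37% of all genes were. These calls and medians also count the shared peak for both hbaa1 and ba1l, and both are among the 7. Epicardium and fibroblast markers had peaks at 2, 6 and 3 of 6 annotated members. Endothelial markers had them at 4, 5 and 6 of 7, with summed tags of 442, 324 and 585. These sums also cover unlike sets: fli1a (128 tags) was in the uncut list alone, and fli1b, tek and pecam1 had no uncut peak. The 3 compared at 6 dpa (kdrl, kdr and esama) were past 1.5-fold lower, with a median of -0.89. Scaled to the background 1 of the 3 was, with a median of -0.40, where 1.08% of all genes were. At 9 dpa, relative to the median gene, 0 of the 3 were, with a median of -0.34. Leukocyte markers had them at 1, 3 and 1 of 3. The marker compared, cd74a, was at -1.34 at 6 dpa, or -0.84 scaled to the background, and at -0.078 at 9 dpa. Skeletal muscle markers were annotated for 3 of 20 genes, with a peak at 1 in each list and none at ryr1b and cacna1sa. The part of these cell types in the changes at mb, fbxl22, apobec2b and smyd1b was not tested.

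Smyd1b, the myosin assembly gene, lies on the minus strand of chromosome 8 from 949768 to 985695 (danRer10), with its TSS at 985695. It had no H3K9ac promoter peak in uncut hearts, 27 tags over 896 bp at 6 dpa (interval 17.8 to 39.3) and 38 tags over 1074 bp at 9 dpa (26.9 to 52.2). Both peaks spanned the TSS, reaching from -131 to 764 and from -280 to 793 bp, and the authors annotated them to the promoter, coding exon and intron of the gene. Their local density was 11.25 and 15.01 reads per kb, the background of the library itself, and they held 2.68 and 2.36 times the tags expected from it. Per kb they were among the weakest promoter peaks, at 30.1 and 35.4 tags per kb, at percentile 0.40 and 0.0698 of all genes with a promoter peak. A peak of 896 bp would have been listed in the uncut library from 31 tags. The 27 tags at 6 dpa, rescaled by the backgrounds, correspond to 35.1 tags there, a few above that limit. The 38 tags at 9 dpa, over 1074 bp, correspond to 37.0 tags there, against a limit of 35. Both margins are small beside the counting intervals of the tags, and a gain beyond the limit for listing was not tested. With the 3 lists cut to equal length by score, the smyd1b peak was absent at 6 dpa and present at 9 dpa. Across all genes 5.95% gained a promoter peak at 6 dpa and 4.64% at 9 dpa, and between 6 and 9 dpa the smyd1b value differed by 0.39, with an interval that spans 0.

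The same gene was the only one of the 6 with H3K9me3 within 20 kb, and that site also carried H3K9ac at 9 dpa. Upstream of the TSS an H3K9me3 peak stood at nearly the same place in every list, from -7121 to -6071 in uncut hearts with 20 tags, from -7127 to -6148 at 6 dpa with 42, and from -7096 to -6221 at 9 dpa with 27. Tags per kb were 19.0, 42.9 and 30.8, in the same order as the library backgrounds, and the tags were between 2.57 and 3.40 times those expected from the local density. The scores of these H3K9me3 peaks were 59.66, 94.01 and 52.51, so the uncut and 9 dpa peaks lay near the lowest score of 50. At 9 dpa an H3K9ac peak of 52 tags covered this site from -7181 to -5957, and no H3K9ac list had a peak there before. Its score of 99.32 lay above that of the promoter peak, 60.04. Overlap of the 2 marks was common in these libraries: 1461 of 4488 H3K9me3 peaks overlapped an H3K9ac peak in uncut hearts (Wilson interval 31.2% to 33.9%), 2500 of 6216 at 6 dpa (39.0% to 41.4%) and 2091 of 4771 at 9 dpa (42.4% to 45.2%). A further H3K9me3 peak, of 19 tags, lay downstream of the gene at 6 dpa alone, and the authors annotated it to the neighbour fabp1b.1. Of all genes, 18.3%, 25.8% and 18.2% had an H3K9me3 peak in the gene or within 20 kb in the 3 lists.

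Desma, the desmin gene, lies on the minus strand of chromosome 9 from 7537472 to 7560906, with its TSS at 7560906. Its promoter peak held 60 tags over 1278 bp in uncut hearts (45.8 to 77.2), 58 over 1721 bp at 6 dpa (44.0 to 75.0) and 43 over 995 bp at 9 dpa (31.1 to 57.9). The 3 intervals overlap, and the peak was widest at 6 dpa and narrowest at 9 dpa. It was the only peak of either mark in the gene or within 20 kb in any list. The change against uncut was -0.16 at 6 dpa (-0.71 to 0.38) and -0.70 at 9 dpa (-1.30 to -0.11), the latter a 1.62-fold lower value. Past 1.5-fold lower lay 7.33% of the 8150 genes compared at 6 dpa and 2.8% of the 8132 at 9 dpa. The 6 dpa value was 0.33 when scaled to the background. The 9 dpa value did not pass 1.5-fold per kb of peak, at -0.26, nor scaled to the background, at -0.52, nor unscaled, at -0.48. Relative to the local density the peak held 2.58, 2.39 and 2.30 times the expected tags.

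Hspb7, the heart small heat shock gene, lies on the minus strand of chromosome 23 from 24331779 to 24336933, with its TSS at 24336933. Its promoter peak was narrow, 797, 870 and 1016 bp in the 3 lists, and held 45 tags in uncut hearts (32.8 to 60.2), 34 at 6 dpa (23.5 to 47.5) and 59 at 9 dpa (44.9 to 76.1). The 6 dpa value was lowest and the 9 dpa value highest, with overlapping intervals. Against uncut the change was -0.52 at 6 dpa (-1.21 to 0.16) and 0.17 at 9 dpa (-0.41 to 0.77). Per kb the 6 dpa value was -0.60, past 1.5-fold, and scaled to the background it was -0.025. From 6 to 9 dpa it was 0.69 (0.058 to 1.34), a 1.61-fold higher value. Of the 8328 genes compared 5.72% were past 1.5-fold higher and 1.96% past 1.5-fold lower, and of the 3 members with a peak in both lists 1 was higher and none lower. The hspb7 difference fell short of 1.5-fold per kb, at 0.49, and scaled to the background, at 0.38. It turned to -0.034 in tags over those expected. The local density was 15.8 reads per kb at 6 dpa and 27.3 at 9 dpa. Scaled to the background, desma was past 1.5-fold lower instead from 6 to 9 dpa, at -0.85, as 14.8% of all genes were. The desma change between these times was -0.54 relative to the median gene (-1.14 to 0.058). It was positive per kb, at 0.28, and in tags over those expected, at 0.13.

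Past the other end of hspb7 stood the highest-scoring peak near these genes in each list. It reached from 6576 to 9505 bp after the TSS in uncut hearts, which begins 1422 bp past the end of the transcript, and the authors' lists annotate no gene to it. It held 263 tags before, 280 at 6 dpa and 242 at 9 dpa, or 89.8, 128 and 111 tags per kb. Its score ranked at percentile 92.0, 98.2 and 95.4 of the lists, where the promoter peak of hspb7 ranked at 2.4, 9.4 and 18.0. The change in tags at this downstream site was -0.024 at 6 dpa (-0.27 to 0.22) and -0.34 at 9 dpa (-0.60 to -0.08). The lower 9 dpa value depends on the measure. The peak was 2930 bp wide in uncut hearts and 2180 bp at 9 dpa, and per kb its tags were higher at 9 dpa. The tags expected from the local density were 110 and 80.7, so relative to them the peak was also higher. Scaling to the background raises each 9 dpa change against uncut by 0.18, which would bring 0 inside this interval.

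Mb, the myoglobin gene, lies on the plus strand of chromosome 1 from 54460309 to 54467431, with its TSS at 54460309. In uncut hearts it had a broad peak of 261 tags over 3898 bp (230 to 295), at 6 dpa a peak of 64 tags over 1313 bp (49.3 to 81.7), and at 9 dpa none. The uncut peak was wider than those of 97.9% of genes with a promoter peak, and the intervals of the 2 times do not overlap. The change at 6 dpa was -2.14 (-2.56 to -1.74), a 4.41-fold lower value, or -1.65 when scaled to the background. It was -0.53 per kb of peak, short of 1.5-fold, and 0.20 in tags over those expected. The 6 dpa peak was narrower, and its local density was 22.9 reads per kb where that of the uncut peak was 42.5.

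The mb peaks at the 2 times also differ in place. The uncut peak covered the start of the gene, from -410 to 3487 bp with its summit at 144, and was annotated to promoter, 5′ untranslated exon, coding exon and intron. At 6 dpa the peak lay inside the gene, from 1946 to 3258 bp with its summit at 2735, and was not annotated to the promoter. It reached into the 2 kb window by 55 bp, so with a window of 1 kb mb had no promoter peak at 6 dpa. At 9 dpa a peak as narrow as that of 6 dpa would have been listed from 41 tags at the background. At the local density of the 6 dpa peak, rescaled by the backgrounds, it would have needed 70. The 64 tags of 6 dpa rescaled in the same way are 85.4. A peak as broad as the uncut one would have needed 94 at the background, or 228 at its rescaled local density. The 261 uncut tags rescaled in the same way are 268. An absent peak is thus one under such a limit, not a count of 0. Between uncut and 9 dpa 2.06% of all genes lost the promoter peak, and between uncut and 6 dpa 1.88% did.

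**Figure D2:**
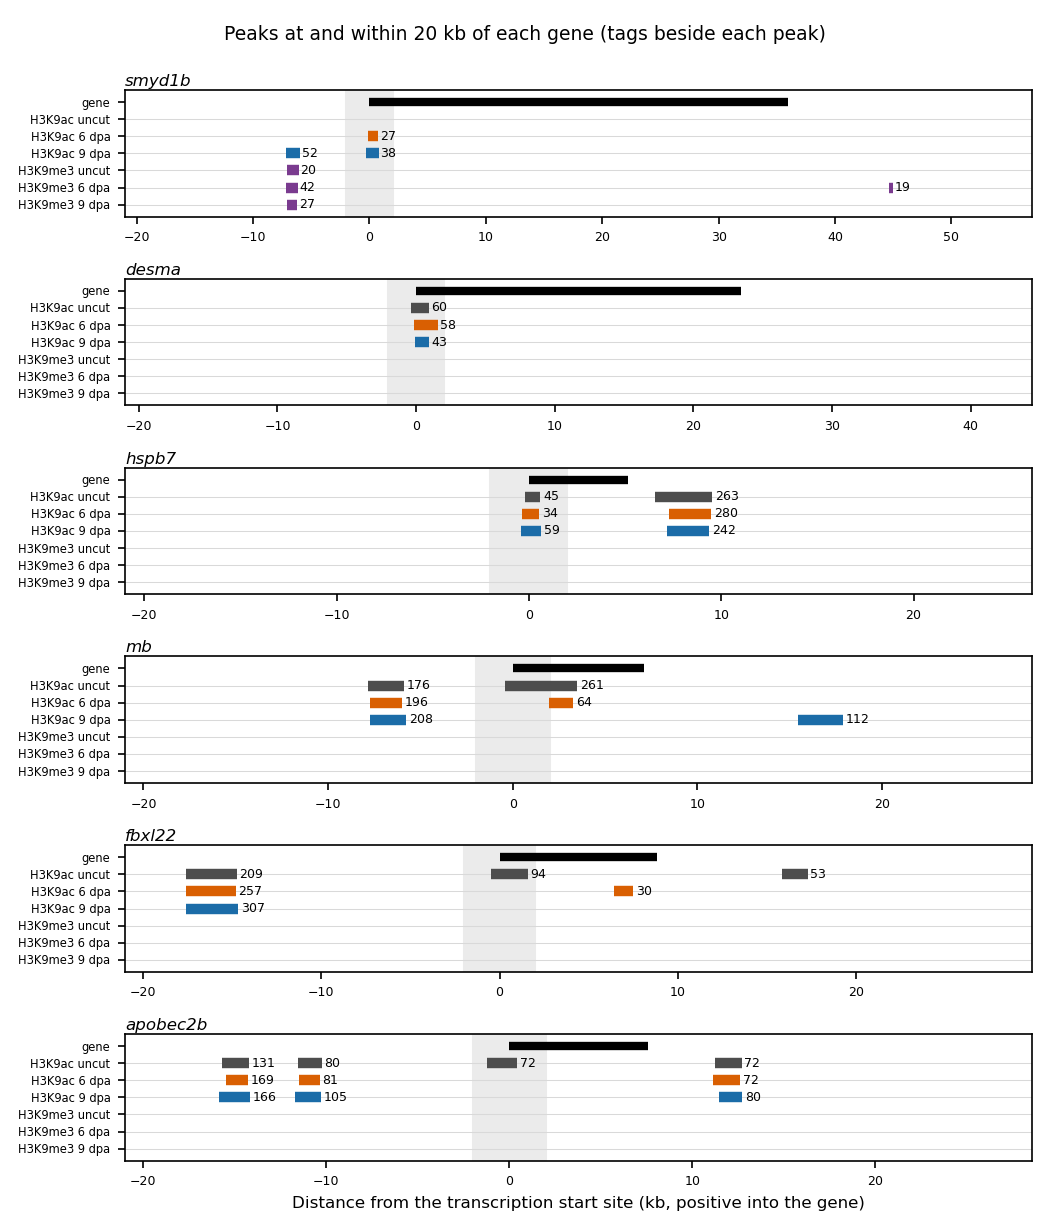
Peaks in and within 20 kb of each gene, by distance from the TSS in kb along the direction of transcription; each row is 1 library, the black bar is the transcript, grey shading is the 2 kb window on either side of the TSS, and numbers are tags. The uncut mb peak covers the TSS and the 6 dpa peak does not, while the site upstream of it has 176, 196 and 208 tags.

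In tags, sites away from the mb promoter did not follow it. Upstream, from -7852 to -5907 in uncut hearts, a peak with no gene annotated held 176 tags, then 196 at 6 dpa and 208 at 9 dpa. Its change was 0.041 at 6 dpa (-0.26 to 0.34) and 0.023 at 9 dpa (-0.27 to 0.32). In tags the interval of this site at 6 dpa lies wholly above that of the promoter, whose peaks differ in width and place. Relative to the local density this site held 2.61 times the expected tags in uncut hearts and 3.29 at 6 dpa. The promoter peaks held 1.58 and 2.13 times, so in that measure both were higher at 6 dpa. The expected tags may include a peak's own reads, so this measure may not be independent of the size of the peak. A peak of 112 tags, from 15470 to 17891 and downstream of the gene, was in the 9 dpa list alone with a score of 53.14, near the lowest value.

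Fbxl22, the Z-disc F-box gene, lies on the minus strand of chromosome 25 from 26283902 to 26292755, with its TSS at 26292755. Its promoter peak was in the uncut list alone, with 94 tags over 2086 bp (76.0 to 115) from -493 to 1592 bp. At the same width a peak would have been listed from 47 tags at 6 dpa and 58 at 9 dpa at the backgrounds, or from 65 and 82 at the local density of the uncut peak rescaled by them. The 94 tags rescaled in the same way are 72.3 at 6 dpa and 96.4 at 9 dpa. At 6 dpa a peak of 30 tags stood farther inside the gene, from 6424 to 7479 bp, annotated to an intron. Downstream a peak of 53 tags was likewise in the uncut list alone. The neighbour usp3, a ubiquitin protease gene whose TSS lies 17183 bp away, had 209, 257 and 307 tags at its promoter in the 3 lists, a change of 0.18 at 6 dpa and 0.34 at 9 dpa.

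Apobec2b lies on the plus strand of chromosome 23 from 19287128 to 19294684, with its TSS at 19287128. Its promoter peak of 72 tags over 1644 bp (56.3 to 90.7), from -1201 to 442 bp, was again in the uncut list alone. The same width would have been listed from 39 tags at 6 dpa and 49 at 9 dpa, or from 50 and 62 at the rescaled local density, against 55.4 and 73.9 for the rescaled uncut tags. Around it 3 other sites were present in all lists. The site at the zgc:113121 promoter had 131, 169 and 166 tags, and that at the oard1 promoter 72, 72 and 80. The site from -11534 to -10245 in uncut hearts, which the authors annotated to zgc:113121, had 80, 81 and 105. At the 3 sites the change against uncut lay between -0.11 and 0.25 at 6 dpa and between -0.066 and 0.17 at 9 dpa, with every interval spanning 0. The paralog apobec2a went the other way in its list entries, with no promoter peak in uncut hearts, 73 tags at 6 dpa and 87 at 9 dpa.

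**Figure D3:**
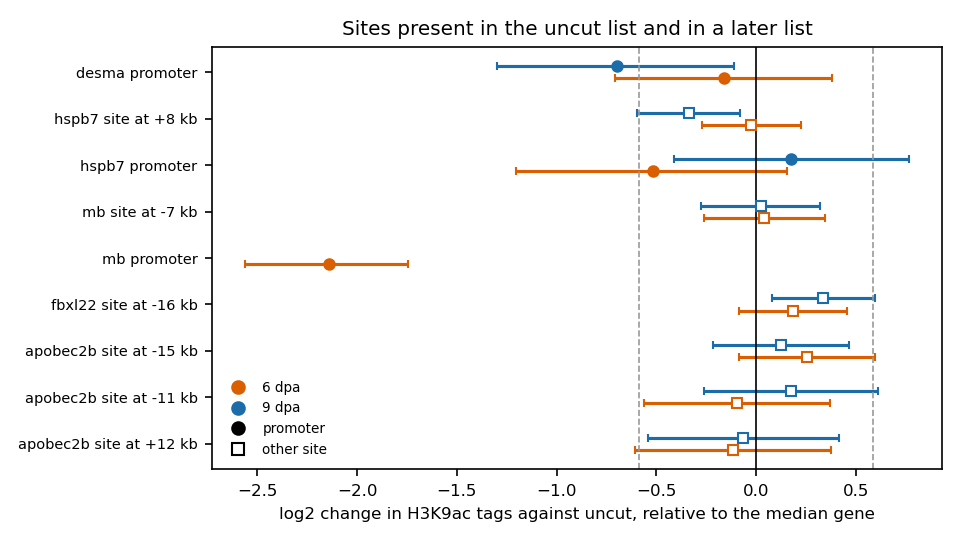
Change in H3K9ac tags at 6 dpa and 9 dpa against uncut (horizontal axis, log2, relative to the median gene) for sites at the 6 genes found in both lists; bars are 95% counting intervals and dashed lines mark 1.5-fold. The mb promoter at -2.14 (-0.53 per kb of peak) stands apart in tags from the other sites, which lie between -0.70 and 0.34. The uncut mb peak covers the TSS, while the narrower 6 dpa peak lies inside the gene, from 1946 to 3258 bp.

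Over the 6 loci together, 2 of 6 promoter sites and 6 of 10 other H3K9ac sites were in all 3 lists. An H3K9ac peak in the gene or within 20 kb was listed for 5 of the 6 genes before amputation, smyd1b lacking it, and for all 6 at 6 and 9 dpa, where 95%, 96.5% and 96.3% of all genes had one. Of the 10 other sites 3 lay within 2 kb of the TSS of another annotated gene, and of the remaining 7 the 3 at hspb7, mb and apobec2b were in all lists. Neighbours that no peak list annotates could not be counted. Within 50 kb of the 6 transcripts 9 other annotated genes have their TSS, and 8 had a promoter peak at all times, as 79.6% of all annotated genes did. Their changes lay between -0.78 and 0.25 at 6 dpa and between -0.80 and 0.34 at 9 dpa. The lowest value at both times was that of ddost, which encodes a subunit of the protein glycosylation complex, near hspb7 (97, 61 and 65 tags).

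All 12 promoter peaks of the 6 genes ranked below the median score of their list, between percentile 2.4 and 39.7. The share of all promoter peaks below that median was not counted. Scores of the 12 lay between 52.00 and 115.00, and 3 were under 60. The highest was that of the uncut mb peak, whose local density was 42.5 reads per kb. By tags that peak ranked at percentile 93.4 of genes with a promoter peak, and every other peak at 29.5 or lower. Each of the 12 held between 1.58 and 2.68 times the tags expected from its local density. In tags per kb they were ordered, in uncut hearts, mb (67.0), hspb7 (56.5), desma (46.9), fbxl22 (45.1) and apobec2b (43.8), where the median gene with a promoter peak had 71.4. At 9 dpa the order was hspb7 (58.1), desma (43.2) and smyd1b (35.4) against a median of 78.3. At 6 dpa mb had 48.7, hspb7 39.1, desma 33.7 and smyd1b 30.1 against 73.0. In each of these orders the counting intervals of neighbours overlap. With scores of at least 100 required, only desma and mb in uncut hearts would count as having a promoter peak. The share of all genes that would count was not determined.

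**Figure D4:**
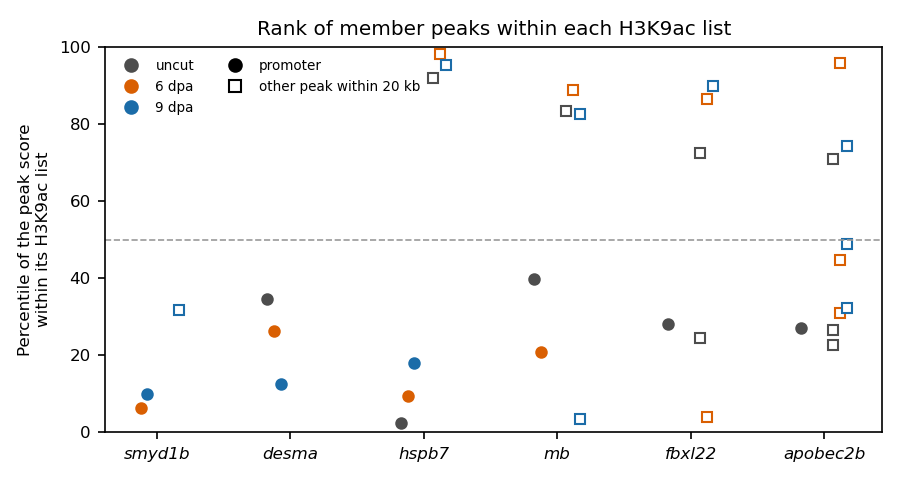
Percentile of each H3K9ac peak's score within its own list (vertical axis) for promoter peaks (filled circles) and other peaks within 20 kb (open squares) of the 6 genes, coloured by time; the dashed line is the median. Promoter peaks lie between 2.4 and 39.7, and the peaks downstream of hspb7 between 92.0 and 98.2.

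The genes most like each member, by the distance of log2 H3K9ac promoter tags over the lists where it has a peak, differed in how near they came. For desma the nearest over 3 libraries was apitd1 (60, 59 and 42 tags, distance 0.042) and then dnajc5aa (0.11), and for hspb7 cfhl2 (46, 33 and 59 tags, distance 0.053) and then trmu (0.13). For smyd1b, over 2 libraries, they were a transcript without a symbol, at 0.10, and zgc:153720, at 0.16. No gene came near mb: of the 140 others with a peak in the uncut and 6 dpa lists alone, the nearest were zgc:113090 (367 and 47 tags, distance 0.66) and prmt1 (1.42). For fbxl22 and apobec2b likeness rests on 1 library, and the nearest were fosb and si:dkey-103i16.6 for fbxl22 (98 and 89 tags) and glis2b and pold1 for apobec2b (71 and 76 tags).

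Related muscle genes from 5 lists showed promoter tags on both sides of the median gene. Across the 63 genes annotated, 35 had a promoter peak in both the uncut and 6 dpa lists, with a median change of -0.055, 1 past 1.5-fold higher and 6 past 1.5-fold lower. Among all 8150 genes compared the shares were 3.42% and 7.33%. Scaled to the background 13 of the 35 were past 1.5-fold higher and none lower, with a median of 0.44. At 9 dpa 40 were compared, with a median of -0.040, 3 higher and 3 lower, where 3.14% and 2.8% of the 8132 genes compared were, and scaled to the background 5 were higher and 2 lower. Of 21 symbols listed as myosin chaperone and small heat shock genes 14 were annotated. A promoter peak stood at 12 of them before amputation, 10 at 6 dpa and 12 at 9 dpa. The shares of all genes, for this list and those below, were 82.8%, 86.9% and 85.4%. The myosin chaperone gene unc45b (45 tags before and 54 at 9 dpa) and hspb2 (58 and 42) were absent at 6 dpa alone. At 6 dpa the highest in this list were zgc:158640, named hspb11 in a newer annotation (88 to 157 tags, change 0.72), and the chaperone-linked ubiquitin ligase gene stub1 (0.40). Its lowest were hspb6 (100 to 62 tags, -0.80) and hsp90ab1 (222 to 144 tags, -0.74), and at 9 dpa these were at -0.56 and -0.47, with hspb2 at -0.68. The highest at 9 dpa were zgc:158640, at 0.64 (0.26 to 1.04), and hspb1, at 0.24. Of the 12 compared then, 1 was past 1.5-fold higher and 1 lower.

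Of 42 symbols listed as intermediate filament, Z-disc and costamere genes 16 were annotated. A promoter peak stood at 9 of them before amputation, 7 at 6 dpa and 6 at 9 dpa, where 82.8%, 86.9% and 85.4% of all genes had one. Absent at 6 dpa alone were the Z-disc genes ldb3b (50 tags before and 45 at 9 dpa), csrp3 (76 and 104) and nexn (78 and 82). The muscle caveolin gene cav3 (34 tags before) and the dystrophin gene dmd (61) were absent at 9 dpa alone. The junction gene jph2 (49 tags) was in the uncut list alone, and fhl1a (59) and the vinculin gene vcla (42) in the 6 dpa list alone. With a peak at all times were synm, which encodes a partner of desmin (139, 134 and 137 tags), ldb3a (68, 63 and 69) and pdlim5b (119, 77 and 78). Their changes at 6 dpa were -0.17, -0.22 and -0.74.

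Of 27 symbols listed as muscle ubiquitin ligase and adaptor genes, the class of fbxl22, 14 were annotated. A promoter peak stood at 11 of them before, 12 at 6 dpa and 13 at 9 dpa. The muscle atrophy ligase gene fbxo32 had 138, 201 and 225 tags, a change of 0.43 (0.11 to 0.75) and then 0.49 (0.17 to 0.80), and fbxo25 had 102, 140 and 179. The lowest at 6 dpa were fbxo30a (145 to 95 tags, -0.72) and trim63 (113 to 89 tags, -0.46). The adaptor gene asb16 had 178 tags at 9 dpa and no peak before, and asb15b had 30 at 6 dpa and 68 at 9 dpa. Of 25 symbols listed as muscle transcription regulators 11 were annotated, and 8 had a peak in each list. The muscle factor gene mef2ca was absent at 6 dpa alone (32 tags before, 50 at 9 dpa) and srfb present there alone (28). The serum response cofactor gene mkl1b had a change of 0.36 at 6 dpa and 0.37 at 9 dpa, skib of 0.20 and 0.90, tead1a of -0.60 and -0.35 and tead3b of -0.52 and -0.32.

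Among paralogs of the 6 genes and other globins, 9 of 11 symbols were annotated. Of these 3, 4 and 4 had a promoter H3K9ac peak in the 3 lists. No list had a promoter H3K9ac peak at smyd1a, cygb1, cygb2 or xgb. A promoter H3K9me3 peak stood at 2, 2 and 1 of the 9, where 1.97%, 4.6% and 1.83% of all genes had one. The other lists of related muscle genes had none. Besides apobec2a, smyd2b (63 tags before and 42 at 9 dpa) was absent at 6 dpa alone and the intermediate filament gene vim (48) was present there alone. At smyd2a (136, 143 and 128 tags) and smyd3 (143, 157 and 140) the peak was in all lists.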

How the data were processed

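Each library has a deposited list of peaks. Per the file headers, tags are the authors' raw counts of reads inside a peak, the score is 10 times the negative log10 of its p, and fold enrichment is a ratio to the caller's background. Fold enrichments were read but no value of theirs is printed. Per the submitters' processing notes, which name danRer10 as build, the tools were MACS 1.4.2, Bowtie2 2.2.5 and DiffBind 1.16.3; their roles and settings, the control and the read totals are not given in the sources used here.

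The 6 genes and all lists were chosen with earlier results of these data known. Named besides them were their neighbours, the 2 nearest genes by promoter tags, and in each list genes present at some times only and those highest or lowest in change. Promoter tags were summed over peaks within 2 kb of a TSS and compared between 2 libraries as a ratio with an exact conditional binomial interval, after subtracting the median gene; calls are past 1.5-fold. Local density solved the Poisson tail for each score, and between 91.9% and 93.8% of peaks gave a whole step of 0.1 or the background. Tags over expected tags, and the split of all genes and lists with tags scaled to the background, were added after seeing the data. Symbols were also matched through GRCz12tu gene IDs, with no coordinate taken. Ratios and densities were tested on simulated data. SciPy 1.17.1 was used.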

Additional observations from a re-analysis of the deposited data

How the results depend on the processing

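No paired analysis was possible because each mark and time has 1 library; for the same reason no replicate could be left out. Requiring a score of at least 100 left H3K9ac promoter peaks at 2, 0 and 0 of the 6 genes in the uncut, 6 and 9 dpa lists. The share of all genes keeping such a peak was not counted. The median score of all peaks in these H3K9ac lists was 144, 169 and 159. The stricter score left 6, 5 and 6 H3K9ac peaks in or within 20 kb of the 6 genes, and 0 H3K9me3 peaks in each list. With this score none of the 6 genes had a promoter peak at 2 times to compare. Windows of 1 or 5 kb and lists of equal length kept the numbers of promoter peaks within 1.5 times; at 6 dpa mb was lost with 1 kb and smyd1b with equal lengths. Within 50 kb there were 20, 18 and 19 H3K9ac peaks against 12, 11 and 11 within 20 kb, and 3 H3K9me3 peaks at 9 dpa against 1. Past 1.5-fold lay 1 of 3 genes compared at 6 dpa against uncut (mb, lower), as 7.33% of all genes compared did. At 9 dpa against uncut 1 of 2 did (desma, lower), as 2.8% did. At 9 against 6 dpa 1 of 3 did (hspb7, higher), as 5.72% did. The number became 0 at 6 dpa against uncut with a 1 kb window, which left 2 genes to compare, and in tags over expected tags. It became 0 at 9 dpa against uncut with unscaled tags, scaled to the background, per kb and over expected tags, and 0 at 9 against 6 dpa per kb and over expected tags. Where the number stayed at 1 the gene could change. Per kb at 6 dpa against uncut it was hspb7 (-0.60) in place of mb (-0.53). Scaled to the background at 9 against 6 dpa it was desma (-0.85) in place of hspb7 (0.38). On that scale 1.08% of all genes were past 1.5-fold lower at 6 dpa and 1.09% at 9 dpa against uncut. At 9 against 6 dpa 14.8% were lower. The shares higher were 38.4%, 7.37% and 1.65% in the same order. Shares of all genes under the other alternatives were not counted. In tags over expected tags the mb change at 6 dpa reversed to 0.20 and that of hspb7 from 6 to 9 dpa to -0.034. The desma change from 6 to 9 dpa, -0.54 in tags (-1.14 to 0.058), moved to 0.28 per kb and 0.13 in tags over expected tags. Both desma values lie outside that interval. Of 63 single-gene values under these alternatives, 57 stayed within their counting interval. Each gene had at most 1 promoter peak per list. Values from other windows or from the largest peak alone thus reused the same tags and could hardly move. The count therefore says little about how far the values hold. The low scores of these peaks limit what absence means.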
